A study of Homo sapiens with 10 samples.

Results

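The transcripts of 10 genes were followed: the cadherins CDH1, CDH2, CDH3, CDH6 and CDH11, the catenins CTNNB1, JUP, CTNNA1 and CTNND1, and the intermediate filament gene VIM. They were chosen by name among the 58302 genes of the deposited tables, and 8 of the 10 reached a mean of 1 FPKM over all libraries. RNA-Seq had been done on 10 libraries of 3 human cell lines, with 1 library per condition. SK-hep1 cells were a mock control or overexpressed the paraspeckle protein PSPC1 or its tyrosine-to-phenylalanine mutant PSPC1-Y523F, each without or with the tyrosine kinase PTK6 (PSPC1/PTK6 and PSPC1-Y523F/PTK6). Mahlavu cells were a mock control or overexpressed the C-terminal fragment PSPC1-CT131 or Mut-NLS-CT131, whose nuclear localization signal (NLS) is mutated. These 2 construct names are the paper's. The labels give the C-terminal of PSPC1 and an NLS mutation of PSPC1, and do not say whether the NLS mutant is the fragment. The Huh-7 cells were untreated or given 10 ng/ml hepatocyte growth factor (HGF) for 48 h, were deposited later and came without read counts, so for Huh-7 the cell line and the deposit cannot be told apart. The constructs were plasmids brought in by transfection, and the labels do not say which libraries came from selected clones. A change below is the log2 ratio of quantile-normalized FPKM + 1 between 2 libraries, and a gene was called changed at 2-fold or more if it also averaged 1 FPKM or more over both. A single library stood for each condition, so no condition could be tested. Intervals are 95% exact intervals from the reads and cover counting error only. In bulk RNA, fewer cells of a kind and less RNA per cell cannot be told apart.

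Classical cadherins are calcium-dependent adhesion molecules that bind cadherins of the neighbouring cell. Inside the cell their tails bind beta-catenin (CTNNB1) or plakoglobin (JUP), and p120-catenin (CTNND1) holds the complex at the membrane, while alpha-catenin (CTNNA1) links it to actin. Beta-catenin also acts in the nucleus as a partner of TCF/LEF factors, and plakoglobin is shared between adherens junctions and desmosomes. In epithelial-mesenchymal transition E-cadherin (CDH1) is typically lost, while N-cadherin (CDH2) and vimentin are gained, and hepatocytes are unusual among epithelia in carrying both E- and N-cadherin.

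The libraries held 15245935 to 24278662 reads on genes. PSPC1 had 0 reads in SK-hep1 mock, 209 with PSPC1, 930 with PSPC1/PTK6, 71 with PSPC1-Y523F and 2539 with PSPC1-Y523F/PTK6, while PTK6 had 277, 307, 1060, 230 and 679. In Mahlavu, PSPC1 did not rise with the label: it had 1582 reads in mock, 899 in the PSPC1-CT131-labelled library and 632 in the Mut-NLS-CT131-labelled library. Of 10 hepatocyte markers, 1 reached 1 FPKM in each SK-hep1 and each Mahlavu library (SERPINA1), and ALB, TTR, TF and FGB were listed at 0 there, whereas all 10 did in both Huh-7 libraries. Of 8 endothelial markers, ENG alone reached 1 FPKM in SK-hep1, and the blood vessel cadherin CDH5 was at 0.36 FPKM or less. Epithelial markers summed to between 5.69 and 22.5 FPKM in SK-hep1, to between 5.13 and 12.1 in Mahlavu, and to 97.1 and 114.6 in Huh-7. Leukocyte markers summed to at most 18.3 FPKM in any library, and fibroblast and smooth muscle markers to between 39.3 and 180.1. The part of these markers in the results was not tested.

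Among the cadherins, each line carried a different one. CDH1 (ENSG00000039068), at chr16:68737225-68835548 on the plus strand of GRCh38, encodes E-cadherin. Its level was 105.7 FPKM (102.4 to 109.1) in Huh-7 left untreated and 130.2 (126.4 to 134.1) after HGF. In Mahlavu it was 0.337 FPKM in mock, 0.477 in the PSPC1-CT131-labelled library and 0.401 in the Mut-NLS-CT131-labelled library, from 17, 21 and 17 reads. In SK-hep1 it had 0 reads in mock and in PSPC1-Y523F, 4 in PSPC1, 4 in PSPC1/PTK6 and 1 in PSPC1-Y523F/PTK6. E-cadherin transcripts were therefore abundant in Huh-7, rare but above the floor of 3 reads in Mahlavu (0.0595 to 0.0707 FPKM), and at 4 reads or fewer in SK-hep1.

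CDH2 (ENSG00000170558), at chr18:27950966-28177446 on the minus strand, encodes N-cadherin. It was at 26.6 FPKM (25.1 to 28.1) in Mahlavu mock, 27.3 (25.7 to 29.03) in the PSPC1-CT131-labelled library and 20.8 (19.4 to 22.3) in the Mut-NLS-CT131-labelled library. Huh-7 held 20.01 FPKM (18.5 to 21.6) untreated and 23.2 (21.6 to 25.0) with HGF. The Mahlavu and Huh-7 levels overlapped, so N-cadherin did not separate these lines. In SK-hep1, CDH2 had 4 reads in mock, 0 with PSPC1, 3 with PSPC1/PTK6, 3 with PSPC1-Y523F and 2 with PSPC1-Y523F/PTK6, at most 0.092 FPKM.

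CDH3 (ENSG00000062038), at chr16:68636189-68722616 beside CDH1, encodes P-cadherin of basal epithelia and placenta. It was highest in Mahlavu, with 4.59 FPKM (3.90 to 5.36) in mock, 12.9 (11.6 to 14.2) in the PSPC1-CT131-labelled library and 5.90 (5.05 to 6.85) in the Mut-NLS-CT131-labelled library. In SK-hep1 the level was 0.181 FPKM (0.066 to 0.394) in mock, 0.712 (0.446 to 1.08) with PSPC1, 2.60 (2.11 to 3.18) with PSPC1/PTK6, 0.248 (0.107 to 0.489) with PSPC1-Y523F and 1.46 (1.09 to 1.90) with PSPC1-Y523F/PTK6. Both SK-hep1 libraries with PTK6 lay above the other 3, and their intervals did not overlap with those of the other 3. Huh-7 had 4 reads untreated and 0 with HGF, and 3 reads there correspond to 0.129 FPKM. Antisense genes share 11.1% of the exon bases of CDH3, 5.62% of CDH1 and 2.75% of CDH2, and the library kit does not mark strand, so reads of the pair cannot be told apart there.

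The remaining cadherins among the members were rare. CDH6 (ENSG00000113361), K-cadherin of kidney and placenta, at chr5:31193750-31329146, had 0 reads in all 8 SK-hep1 and Mahlavu libraries and was listed in Huh-7 at 3.84 FPKM untreated and at 3.62 after HGF. Its Huh-7 reads are not known, since no other library gives its length. CDH11 (ENSG00000140937), the cadherin of osteoblasts and mesenchyme, at chr16:64943753-65126112, had 3 reads in the PSPC1-CT131-labelled library, 2 in untreated Huh-7 and 0 in the other 8 libraries. Reads of CDH11 were thus at or under the floor of 3 reads in every library.

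**Figure D1:**
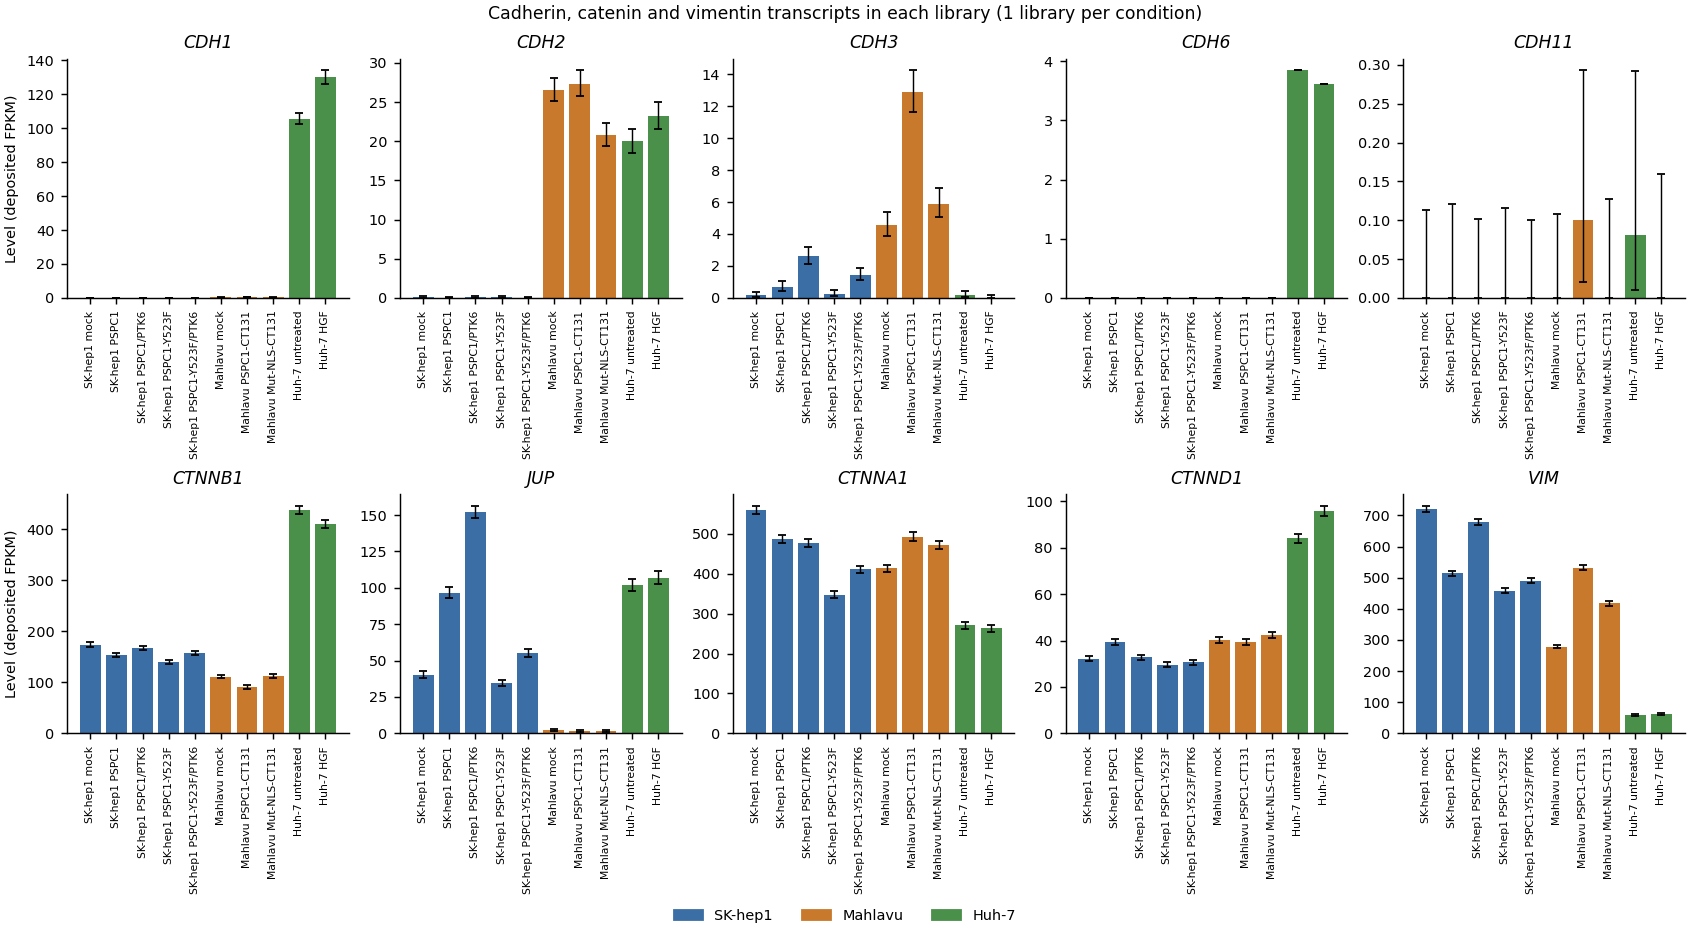
Level of each of the 10 genes as deposited FPKM (vertical axes, linear from 0, a scale of its own per gene) in the 10 libraries (horizontal axes), coloured by cell line. Each bar is 1 library and error bars are 95% exact Poisson intervals of the reads (none for CDH6, whose Huh-7 reads are not known). CDH1 stands at 105.7 and 130.2 in Huh-7 only, JUP ranges from 34.5 to 152.0 in SK-hep1 and from 1.50 to 2.18 in Mahlavu, and VIM is lowest in Huh-7.

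Since CDH1 and CDH2 had at most 4 reads in any SK-hep1 library, the other 12 classical cadherins of a fixed list were read beside the 5 members. R-cadherin (CDH4) led in SK-hep1, with 38.0 FPKM in mock, 86.6 with PSPC1, 35.9 with PSPC1/PTK6, 112.9 with PSPC1-Y523F and 59.1 with PSPC1-Y523F/PTK6. It made up 65.9% of the summed FPKM of all 17 classical cadherins in SK-hep1 mock, 83.5% with PSPC1, 71.9% with PSPC1/PTK6, 85.4% with PSPC1-Y523F and 84.0% with PSPC1-Y523F/PTK6. In Mahlavu CDH4 was at most 0.276 FPKM and CDH2 led, with 61.4% of the sum in mock, 54.0% in the PSPC1-CT131-labelled library and 56.7% in the Mut-NLS-CT131-labelled library. In Huh-7, CDH1 led with 74.8% untreated and 77.1% with HGF. The summed level was 49.98 to 132.3 FPKM in SK-hep1, 36.8 to 50.6 in Mahlavu and 141.2 and 168.9 in Huh-7. CDH24, a little studied classical cadherin, was the second of the sum in SK-hep1 mock (11.9 FPKM) and was present in all 10 libraries, between 3.68 and 16.5 FPKM. CDH18, a cadherin best known from the nervous system, stood at 7.27 FPKM in SK-hep1 mock, at 2.22 to 2.82 in the other 4 SK-hep1 libraries, and at 0.029 or less in the other lines.

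**Figure D2:**
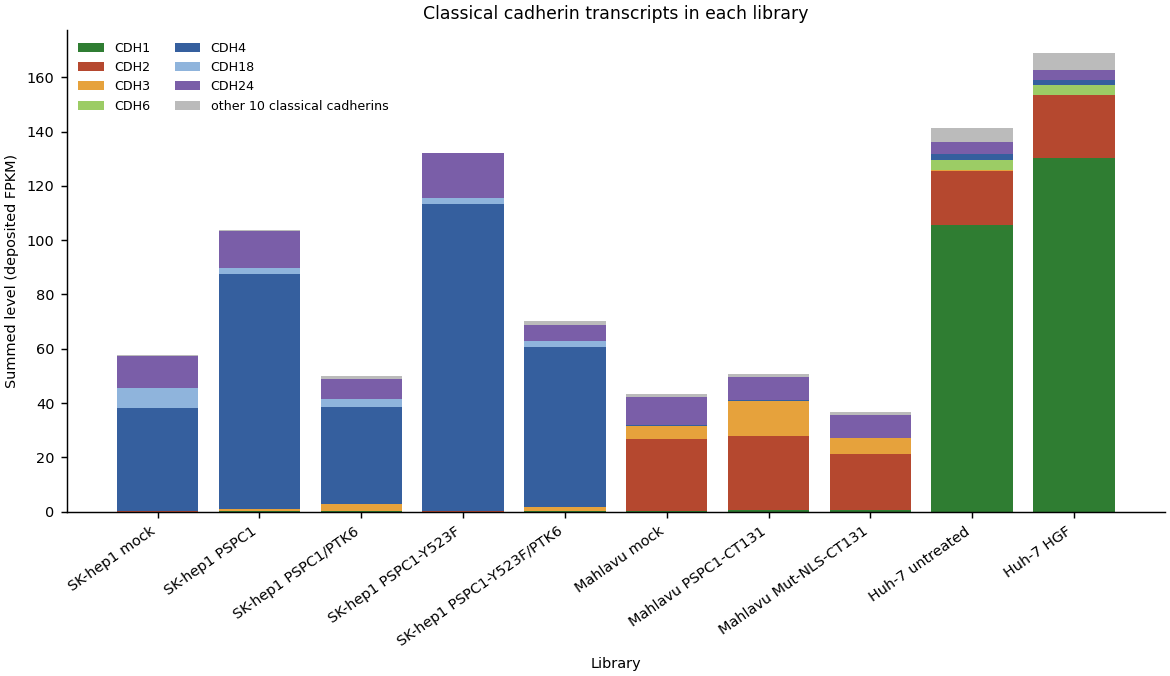
Summed deposited FPKM of 17 classical cadherins (vertical axis) in each of the 10 libraries (horizontal axis), stacked by gene. CDH4 fills most of each SK-hep1 bar (65.9% to 85.4%), CDH2 most of each Mahlavu bar (54.0% to 61.4%) and CDH1 most of each Huh-7 bar (74.8% and 77.1%).

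The catenins were present in every library, and JUP alone among them came close to being lost. JUP (ENSG00000173801), at chr17:41754604-41786931 on the minus strand, stood at 40.3 FPKM (38.1 to 42.7) in SK-hep1 mock, 96.7 (93.1 to 100.4) with PSPC1, 152.0 (147.9 to 156.3) with PSPC1/PTK6, 34.5 (32.4 to 36.7) with PSPC1-Y523F and 55.1 (52.7 to 57.7) with PSPC1-Y523F/PTK6. No pair of these 5 intervals overlapped. In Mahlavu it was 2.18 FPKM (1.70 to 2.76) in mock, 1.67 (1.22 to 2.22) in the PSPC1-CT131-labelled library and 1.50 (1.07 to 2.05) in the Mut-NLS-CT131-labelled library, and these intervals overlapped. Huh-7 held 101.6 FPKM (97.5 to 105.8) untreated and 106.9 (102.5 to 111.3) with HGF.

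CTNNB1 (ENSG00000168036), at chr3:41194837-41260096 on the plus strand, varied less than JUP within SK-hep1. It was there at 173.7 FPKM in mock, 153.1 with PSPC1, 166.6 with PSPC1/PTK6, 139.9 with PSPC1-Y523F and 157.9 with PSPC1-Y523F/PTK6. In Mahlavu it was 111.1 FPKM in mock, 90.6 in the PSPC1-CT131-labelled library and 112.8 in the Mut-NLS-CT131-labelled library. Huh-7 had the most, 437.7 FPKM untreated and 409.9 with HGF. The highest SK-hep1 level was 1.24 times the lowest for CTNNB1, against 4.40 times for JUP. In Huh-7 both genes varied by 1.07 times or less.

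As beta-catenin and plakoglobin bind the same stretch of the cadherin tail, their levels were set side by side within each library. JUP made up 18.8% of the summed JUP and CTNNB1 FPKM in SK-hep1 mock, 38.7% with PSPC1, 47.7% with PSPC1/PTK6, 19.8% with PSPC1-Y523F and 25.9% with PSPC1-Y523F/PTK6. It was 1.93%, 1.81% and 1.32% in Mahlavu mock and the libraries labelled PSPC1-CT131 and Mut-NLS-CT131, and 18.8% and 20.7% in untreated and HGF-treated Huh-7. The Mahlavu libraries thus held beta-catenin with hardly any plakoglobin, and in PSPC1/PTK6 both were close to equal.

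CTNNA1 (ENSG00000044115), at chr5:138610967-138935034 on the plus strand, was at 559.8 FPKM in SK-hep1 mock, 486.7 with PSPC1, 477.2 with PSPC1/PTK6, 347.8 with PSPC1-Y523F and 411.4 with PSPC1-Y523F/PTK6. The mock library was the highest and PSPC1-Y523F the lowest of the 5. Mahlavu had 414.1 FPKM in mock, 493.3 in the PSPC1-CT131-labelled library and 472.4 in the Mut-NLS-CT131-labelled library, within the SK-hep1 range. Huh-7 was lower, with 270.6 FPKM untreated and 263.0 with HGF. LRRTM2 on the opposite strand shares 5.04% of the exon bases.

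CTNND1 (ENSG00000198561), at chr11:57753243-57819546 on the plus strand, stood at 32.2 FPKM in SK-hep1 mock, 39.5 with PSPC1, 32.8 with PSPC1/PTK6, 29.6 with PSPC1-Y523F and 30.6 with PSPC1-Y523F/PTK6. Mahlavu had 40.1, 39.3 and 42.4 FPKM in mock and the libraries labelled PSPC1-CT131 and Mut-NLS-CT131, and Huh-7 had 84.0 untreated and 95.7 with HGF. The Huh-7 libraries were the highest and did not overlap with either of the other lines. A read-through gene, TMX2-CTNND1, shares 3.65% of the exon bases, so a small part of these reads is uncertain.

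VIM (ENSG00000026025), at chr10:17228259-17237593 on the plus strand, encodes vimentin, the intermediate filament protein of mesenchymal cells. In SK-hep1 it was at 721.0 FPKM in mock, 513.9 with PSPC1, 679.5 with PSPC1/PTK6, 458.1 with PSPC1-Y523F and 490.5 with PSPC1-Y523F/PTK6. In Mahlavu it was at 278.9 FPKM in mock, 532.4 in the PSPC1-CT131-labelled library and 418.3 in the Mut-NLS-CT131-labelled library. Huh-7 had 58.9 FPKM untreated and 61.6 with HGF. Vimentin was thus highest in SK-hep1 mock, and both Huh-7 libraries lay below every other library. Its antisense neighbour VIM-AS1 shares 12.4% of the exon bases of VIM and was at most 3.42 FPKM in any library.

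Vimentin assembles apart from the keratins of epithelial cells, which were also abundant. KRT18 was at 1330 to 3233 FPKM in SK-hep1, at 262.2, 268.7 and 102.0 in Mahlavu mock and the libraries labelled PSPC1-CT131 and Mut-NLS-CT131, and at 173.7 and 152.4 in Huh-7. The ratio of VIM to KRT18 FPKM was 0.152 to 0.511 in SK-hep1, 0.339 and 0.404 in Huh-7, and 1.06, 1.98 and 4.10 in Mahlavu mock, PSPC1-CT131 and Mut-NLS-CT131. SK-hep1, with the highest median VIM level of the 3 lines, also had the most KRT8 and KRT18 transcripts, so this ratio put SK-hep1 beside Huh-7 and not beside Mahlavu.

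**Figure D3:**
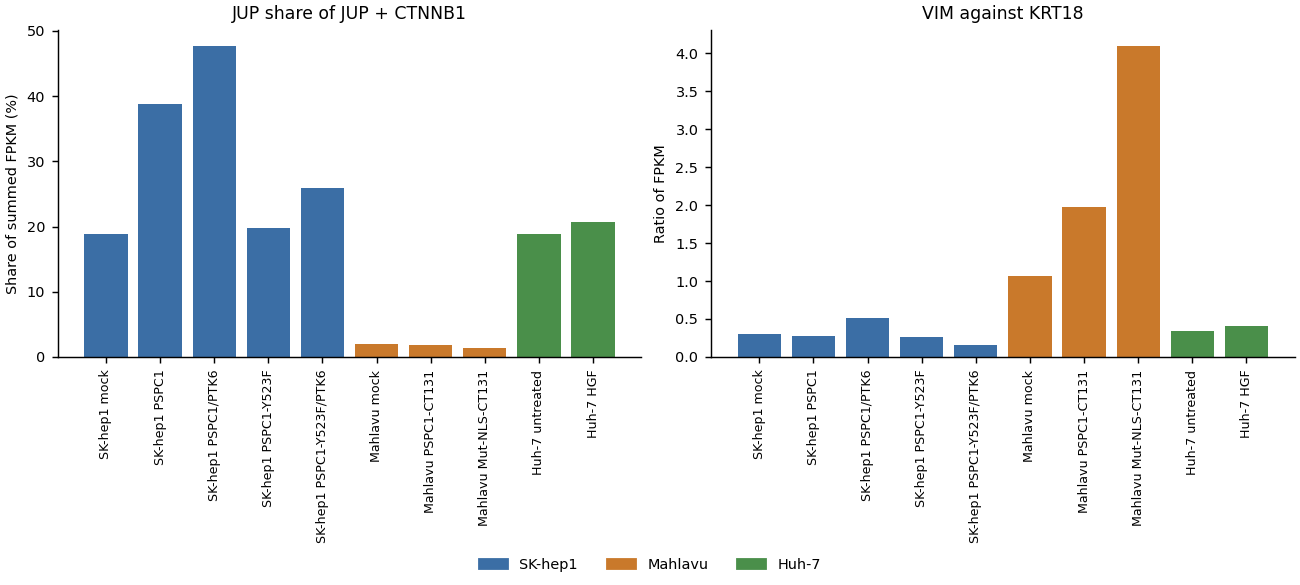
Left, share of JUP in the summed FPKM of JUP and CTNNB1 (vertical axis, %). Right, ratio of VIM to KRT18 FPKM (vertical axis). Bars are the 10 libraries, coloured by cell line. The JUP share reaches 47.7% in SK-hep1 PSPC1/PTK6 and is at most 1.93% in Mahlavu, and the VIM to KRT18 ratio is above 1 in Mahlavu only.

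The order of the members differed between lines. In SK-hep1 mock it ran VIM, CTNNA1, CTNNB1, JUP, CTNND1, CDH3 by FPKM, with the rest under 0.1 FPKM. In untreated Huh-7 it ran CTNNB1, CTNNA1, CDH1, JUP, CTNND1, VIM, CDH2 and CDH6, and the intervals of CDH1 and JUP overlapped. VIM was the first of the 10 in 6 of 10 libraries by FPKM. The gene length behind the FPKM is shorter than the length column of the tables (939 against 3831 bases for CTNNA1, 1369 against 2666 for VIM). With the listed length in its place, VIM came first in 8 of 10 libraries, so in Mahlavu the order of VIM and CTNNA1 depends on the length used. CTNND1 then stood above JUP in SK-hep1 mock, and above both CDH1 and JUP in untreated Huh-7.

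Promoter sequence of the RefSeq set covered 5 of the 10 members, in 10 windows of 250 bases before a start on GRCh38.p14. The E-box letters CACCTG and their reverse complement CAGGTG, the type of site that SNAI and ZEB repressors bind in the E-cadherin promoter, were looked for on both strands of the whole windows, exon bases included. They occurred in 17.5% of all 35116 windows and in 1 of the 10 member windows, a start of JUP, whose pair lies 54 and 43 bases before that start. The site, chr17:41786008-41786036 on the minus strand, is within annotated exons of other JUP transcripts in GENCODE 29. It is shown because JUP is the catenin that moved most, and the window before the start of VIM, chr10:17227991-17228240 on the plus strand, is shown beside it as one without the letters. Capitals mark the E-boxes.
JUP: tggcccCACCTGccgagCAGGTGagcgca
VIM: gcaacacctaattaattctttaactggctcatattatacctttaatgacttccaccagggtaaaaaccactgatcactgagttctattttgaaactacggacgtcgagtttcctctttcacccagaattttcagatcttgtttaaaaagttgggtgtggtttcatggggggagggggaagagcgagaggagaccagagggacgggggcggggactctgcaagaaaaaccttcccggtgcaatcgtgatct
A match is a run of letters and not a measured binding site.

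Between the lines, members were called apart where the lowest library of one line was at least 2 times the highest of the other, on FPKM + 1 normalized over all 10 libraries. SK-hep1 and Mahlavu were apart in 2 of 7 members averaging 1 FPKM or more, against 12.1% of 13275 genes. CDH2 was lower in SK-hep1 by a log2 gap of -3.98 and JUP higher by 3.79, while CTNNA1, CTNND1 and VIM overlapped, and CTNNB1 and CDH3 had gaps of 0.37 and -0.27. Huh-7 and SK-hep1 were apart in 5 of 8 members, against 34.9% of 13658 genes. CDH1 was higher in Huh-7 by a log2 gap of 6.63, CDH2 by 3.90, CTNNB1 by 1.51 and CTNND1 by 1.09, VIM was lower with a gap of -2.67, CDH3 and CTNNA1 had gaps of -0.41 and -0.00, and JUP overlapped. Huh-7 and Mahlavu were apart in 7 of 9 members, against 34.0% of 13632 genes. CDH1 was higher in Huh-7 by 6.25, JUP by 5.34, CTNNB1 by 2.16, CDH6 by 1.76 and CTNND1 by 1.26, and VIM and CDH3 were lower with gaps of -2.11 and -2.09. CDH2 overlapped between these lines, and CTNNA1 had a gap of -0.47. The CDH6 value rests on a gene listed at 0 in all 3 Mahlavu libraries and depends on the constant of 1 that was added. The sizes of the CDH1 and CDH2 gaps to SK-hep1, where both genes were near 0, also depend on the processing. Over 6 alternatives, CDH1 ranged from 4.56 to 8.64 between Huh-7 and SK-hep1, and CDH2 from -5.82 to -2.16 between SK-hep1 and Mahlavu. Both stayed at 2-fold or more in all 6.

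Beside the members, the E-cadherin repressors differed by line. SNAI1 had at most 2 reads in any SK-hep1 library and stood at 8.29 to 17.2 FPKM in Mahlavu and at 14.0 and 14.2 in Huh-7. TWIST1 was at 21.2 to 38.7 FPKM in SK-hep1 and 80.2 to 103.6 in Mahlavu and had 0 reads in Huh-7, and ZEB2 was at 0.070 FPKM or less in Huh-7 against 3.03 to 14.4 in the others. Of 8 repressors, 7 were tested: 2 were higher and 3 lower in Huh-7 than in SK-hep1, and 1 was higher and 3 lower than in Mahlavu. Of 10 E-cadherin activators, 5 were tested, and 3 were higher and 1 lower in Huh-7 than in each of the other lines, where 34.9% and 34.0% of all genes were apart, among them FOXA1 at 51.2 and 51.3 and ESRP2 at 41.6 and 36.5 FPKM in untreated and HGF-treated Huh-7. Of 15 other catenins and junction linkers, 12 were tested. In Huh-7, 4 were higher and 1 lower than in SK-hep1, and 6 were higher and 1 lower than in Mahlavu. Among them, delta-catenin (CTNND2), best known from neurons, was at 10.2 and 8.97 FPKM in Huh-7 and at 0.024 or less elsewhere, and AFDN, the nectin-actin linker afadin, was at 114.8 and 115.1 against 9.42 to 17.1. In the destruction complex that marks beta-catenin for degradation, 8 genes were tested, and 2, AXIN1 and AMER1, were lower in Huh-7 than in each other line. This count is not above the share of all genes apart. AMER1 was at 0.030 FPKM or less in Huh-7. AXIN1 was at 9.66 and 9.31 FPKM there against 27.4 to 45.6.

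In SK-hep1, JUP was higher in the PSPC1 library than in mock and the other members were within 2-fold on the scale of FPKM + 1. JUP was 2.31-fold higher, from 1219 to 2727 reads, a ratio of reads per library total of 2.40 (2.24 to 2.57). It was the 1 member called of 5 tested, where 5.57% of 12410 genes were called. VIM changed by -0.49 on the log2 scale, CTNNA1 by -0.15, CTNNB1 by -0.10 and CTNND1 by 0.31, all under 2-fold. The median of the tested members was -0.10 and that of all genes -0.03. CDH3 went from 6 to 22 reads, a ratio of 3.93 (1.55 to 11.9), under the level needed for a call. Of 8 epithelial markers, 3 were tested, and 1 was called with PSPC1 and 2 with PSPC1/PTK6, where 5.57% and 8.41% of all genes were. TJP3 was higher by 1.52 with PSPC1 and by 1.50 with PSPC1/PTK6, and CLDN4 by 1.27 with PSPC1/PTK6. OCLN, also of tight junctions, stood at 5.17 FPKM in mock, 5.22 with PSPC1 and 6.82 with PSPC1/PTK6. CLDN7 had 12, 4 and 15 reads in these libraries. The 8 epithelial markers summed to 8.87 FPKM in mock, 16.1 with PSPC1 and 22.5 with PSPC1/PTK6. Their part in the JUP values was not tested.

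With PTK6 beside PSPC1, JUP and CDH3 were higher than in mock. JUP was 3.59-fold higher, with 5060 reads, a ratio of 3.77 (3.54 to 4.01), and CDH3 was 2.60-fold higher, with 95 reads, a ratio of 14.4 (6.37 to 40.2). These were 2 of 6 members tested, where 8.41% of 12436 genes were called. CDH3 was at 0.29 normalized FPKM in mock and 2.36 here, so it passed the filter only through the library where it was high. Its call followed from that filter and cannot be set beside the share. VIM, CTNNB1, CTNNA1 and CTNND1 changed by -0.05, -0.01, -0.11 and -0.11, and the median of the tested members was -0.03 against -0.04 for all genes. The fold of CDH3 is small beside its ratio of reads because 1 FPKM is added, and with a constant of 5 it fell under 2-fold.

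With the mutant PSPC1-Y523F, none of the members was called against mock. JUP changed by -0.18, from 1219 to 1015 reads, a ratio of 0.856 (0.787 to 0.931), and 0 of 5 members tested were called, where 5.29% of 12382 genes were. VIM and CTNNA1 were the members furthest from mock, at -0.68 and -0.65, with ratios of reads of 0.635 (0.622 to 0.649) and 0.621 (0.603 to 0.640), while CTNNB1 changed by -0.29 and CTNND1 by -0.07. The median of the members was -0.29 against -0.01 for all genes. In PSPC1-Y523F/PTK6, CDH3 was the 1 member called of 6, 2.36-fold above mock, where 5.03% of 12412 genes were called. CDH3 again passed the filter only through the library with PTK6, so its call cannot be set beside the share. JUP changed by 0.49, from 1219 to 1866 reads, a ratio of 1.37 (1.27 to 1.47), and VIM by -0.53, CTNNA1 by -0.37, CTNNB1 by -0.12 and CTNND1 by 0.02. These 4 comparisons share the mock library. The PSPC1 reads also differed between the 4 transfected libraries, from 71 to 2539. Within each form of PSPC1, the reads of PSPC1 and of JUP were both higher in the library with PTK6, while over all 4 their orders differed. The part of the PSPC1 level in the JUP values was not tested.

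**Figure D4:**
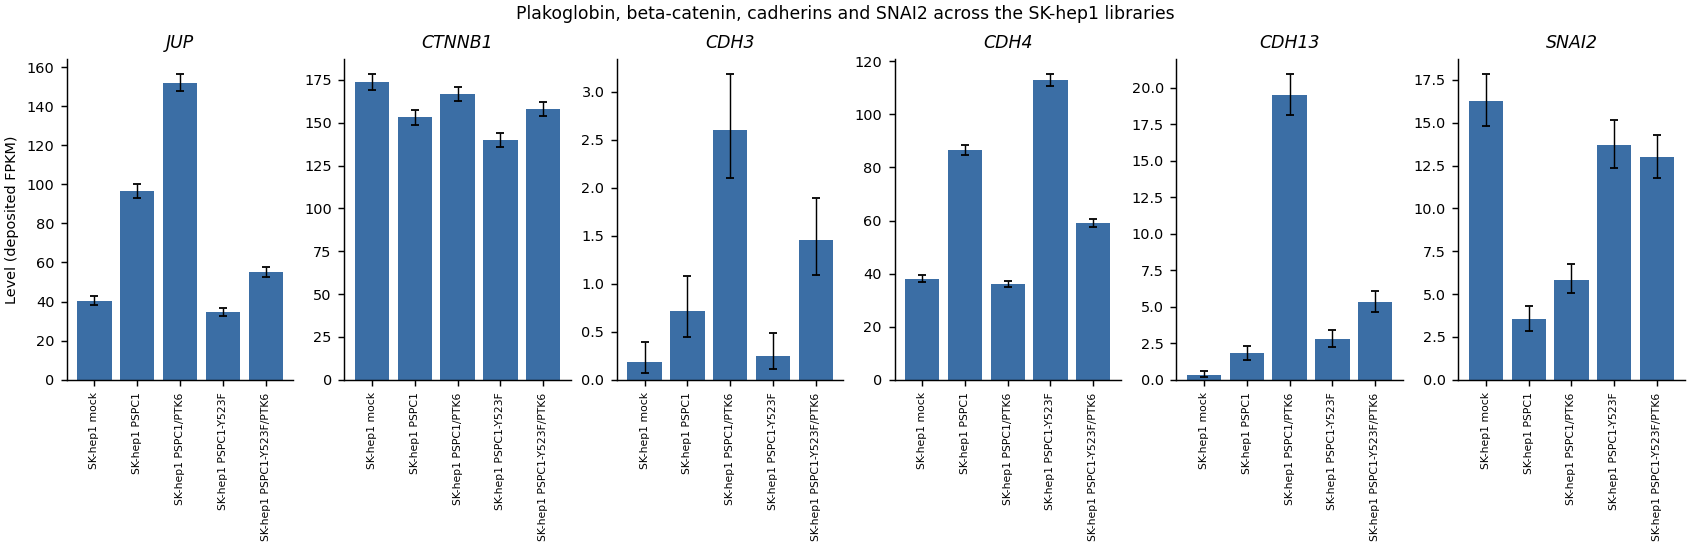
Deposited FPKM (vertical axes, linear from 0, a scale of its own per gene) of JUP, CTNNB1, CDH3, CDH4, CDH13 and SNAI2 in the 5 SK-hep1 libraries (horizontal axes). Each bar is 1 library and error bars are 95% exact Poisson intervals of the reads. JUP, CDH3 and CDH13 are highest in PSPC1/PTK6, CTNNB1 stays between 139.9 and 173.7, and SNAI2 is lowest in PSPC1 (3.53) and PSPC1/PTK6 (5.85).

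Adding PTK6 was compared within each form of PSPC1. On wild-type PSPC1, JUP changed by 0.64 and CDH3 by 0.80, with ratios of reads of 1.57 (1.50 to 1.65) and 3.66 (2.28 to 6.11). VIM changed by 0.44, CTNND1 by -0.41, CTNNB1 by 0.09 and CTNNA1 by 0.04. None of 6 members was called, where 4.96% of 12391 genes were. On PSPC1-Y523F, JUP changed by 0.67 and CDH3 by 1.18, with ratios of 1.60 (1.48 to 1.73) and 5.86 (2.77 to 14.3), and CDH3 was the 1 member called of 6, where 5.98% of 12398 genes were. At 0.34 normalized FPKM without PTK6, CDH3 passed the filter only through the library with PTK6. Its call therefore cannot be set beside that share. VIM changed by 0.15, CTNNA1 by 0.27, CTNNB1 by 0.17 and CTNND1 by 0.10. JUP and CDH3 were thus higher in the library with PTK6 on either form, by values whose counting intervals overlapped. In both pairs the library with PTK6 also had more PSPC1 reads, so PTK6 and the level of PSPC1 cannot be told apart. The medians were 0.27 and 0.22 for the members and -0.02 and -0.03 for all genes.

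Other cadherins moved in these libraries. CDH4 was 2.22-fold higher than mock with PSPC1 and 2.80-fold higher with PSPC1-Y523F, and was lower by 1.35 on the log2 scale in PSPC1/PTK6 than in PSPC1. CDH18 was called lower than mock in all 4 transfected libraries, between -1.15 and -1.41. CDH13, a cadherin anchored by lipid that has no tail for catenins, had 11 reads in mock, 59 with PSPC1, 748 with PSPC1/PTK6, 94 with PSPC1-Y523F and 208 with PSPC1-Y523F/PTK6, and was called higher than mock in all 4. It stood at 0.316 FPKM in mock, so it passed the filter only through the transfected libraries. Among 8 repressors, SNAI2, which encodes Slug, fell in PSPC1 (-1.80) and PSPC1/PTK6 (-1.57), from 465 to 94 and 184 reads, and was not called in the Y523F libraries, with 381 and 415 reads. TCF4, a basic helix-loop-helix factor at 0.445 to 2.15 FPKM in SK-hep1, was called higher in PSPC1-Y523F/PTK6 than in mock (1.26) and than in PSPC1-Y523F (1.01). It was 1 of 6 repressors tested in each, where 5.03% and 5.98% of genes were called. It passed the filter only through the library where it was high. Of fibroblast and smooth muscle markers, 1 of 4 tested was called higher than mock (THY1, 1.53). Against PSPC1-Y523F it was 2 of 5 (PDGFRB, 1.19, and THY1, 1.19), and none was called lower. Their part was not tested. Whether the wild-type and Y523F libraries differ in SNAI2 beyond culture-to-culture spread was not tested. None of the 8 tested genes of the destruction complex and none of the 8 of cadherin turnover was called in any of the 6 SK-hep1 comparisons. In these, 4.96% to 8.41% of all genes were called, so no call among 8 genes is near that share.

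In Mahlavu, CDH3 was the member that moved. It was 3.35-fold higher in the PSPC1-CT131-labelled library than in mock, 390 against 159 reads, a ratio of 2.81 (2.33 to 3.40). It was the 1 member called of 7, where 6.33% of 12415 genes were. VIM changed by 0.88, a ratio of reads of 1.91 (1.86 to 1.96), short of 2-fold, and reached it when read counts were scaled by TMM (1.22) or by DESeq2 size factors (1.25). CDH2 changed by 0.29, CTNNB1 by -0.27, CTNND1 by 0.16 and CTNNA1 by 0.10. JUP changed by 0.09 but by a ratio of reads of 0.764 (0.514 to 1.125), so its direction depends on the scaling. The medians were 0.16 for the members and 0.01 for all genes. The differences of this library followed GC content, with Spearman's rho of 0.57 across 12402 genes, which are not independent. Markers of other cells moved in the same library, THY1 by -1.74, ACTA2 by -1.62 and CLDN4 by 1.297, and their part was not tested. With length and GC content taken out, the log2 change of CDH3 was 1.53 in place of 1.75.

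In the Mut-NLS-CT131-labelled library, none of 7 members was called against mock, where 6.42% of 12425 genes were. VIM changed by 0.56, a ratio of 1.50 (1.46 to 1.54), CDH3 by 0.47, a ratio of 1.29 (1.03 to 1.60), and CDH2 by -0.27, a ratio of 0.785 (0.716 to 0.859). CTNND1 changed by 0.14, JUP by -0.13, CTNNA1 by 0.11 and CTNNB1 by 0.04, and the medians were 0.11 and 0.00. KRT8 and KRT18 fell by 1.55 and 1.49 on the log2 scale in the same library, where CLDN4 changed by 1.68 and THY1 by -1.90. Between the libraries labelled PSPC1-CT131 and Mut-NLS-CT131, CDH3 was 2.43-fold higher in the first, a ratio of 2.19 (1.82 to 2.63), and was the 1 member called of 7, where 8.82% of 12453 genes were. CDH2 differed by 0.56, VIM by 0.32, CTNNB1 by -0.31, JUP by 0.22, CTNNA1 by -0.01 and CTNND1 by 0.01, and the medians were 0.22 and 0.01. Among the nuclear partners of beta-catenin, 2 of 8 tested were called higher than mock in the PSPC1-CT131-labelled library, TCF7 by 1.82 and CTNNBIP1 by 1.04. In the Mut-NLS-CT131-labelled library it was 1 of 7, TCF7 by 1.13. None was called lower, and 6.33% and 6.42% of all genes were called. Both comparisons share the mock library. The differences between the libraries labelled PSPC1-CT131 and Mut-NLS-CT131 also followed GC content, with Spearman's rho of 0.57 across 12440 genes. For Mut-NLS-CT131 against mock rho was -0.10, and in the SK-hep1 comparisons it ran from -0.31 to 0.25.

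With HGF, the members in Huh-7 were within 2-fold of their untreated levels. None of 8 tested was called, where 0.82% of 14262 genes were. CDH1 changed by 0.32, from 3848 to 4415 reads, a ratio of 1.23 (1.18 to 1.29), CDH2 by 0.22, a ratio of 1.16 (1.04 to 1.29), and CTNND1 by 0.21, a ratio of 1.14 (1.10 to 1.18). CTNNB1 changed by -0.10, a ratio of 0.936 (0.911 to 0.962), and CDH6 by -0.09. For JUP, CTNNA1 and VIM the ratio was 1.05 (0.992 to 1.11), 0.972 (0.930 to 1.02) and 1.05 (0.968 to 1.13), so no difference was detectable at this depth. The medians were 0.08 for the members and 0.00 for all genes. No gene of the other cadherin, catenin, repressor, activator or intermediate filament lists was called either.

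**Figure D5:**
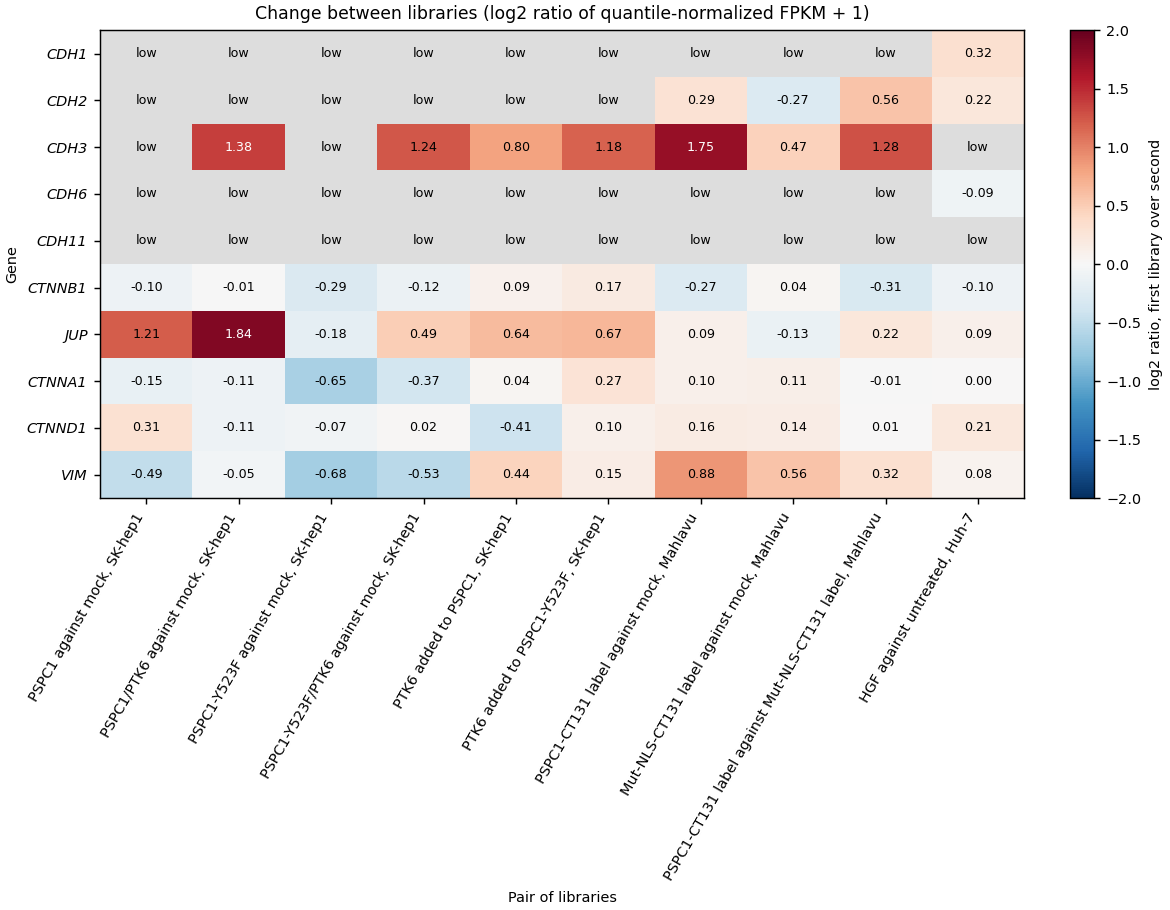
Log2 ratio of quantile-normalized FPKM + 1 for the 10 genes (vertical axis) in 10 pairs of libraries (horizontal axis), first library over second. Red is higher and blue lower, and grey cells marked low had a mean under 1 FPKM. JUP (1.21 and 1.84) and CDH3 (up to 1.75) hold the values of 1 or more, and no member was at -1 or below.

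Genes whose levels ran most like a member over the 10 libraries were read by Pearson's r of log2(FPKM + 1) among 13857 genes. It is a description over 3 lines, and the libraries of a line share its cells and are not independent. HPN, SSTR1 and ADGRV1 were the nearest to CDH1, with r of 0.9997, 0.9996 and 0.9993. NAAA, PRDX2 and TPM3P9 were nearest to CDH2 (0.9983, 0.9981 and 0.9978), and GRINA, WFDC3 and ZG16B to CDH3 (0.98, 0.97 and 0.97). TMEM25, FCGRT and KIF5A were nearest to JUP (0.99, 0.99 and 0.99), SCNN1A to CTNNB1 (0.99), PGPEP1 to CTNND1 (0.99) and CBARP to VIM (0.99). Between members, CDH1 and CTNND1 had r of 0.97, CTNNA1 and VIM 0.91, CTNND1 and VIM -0.95, and JUP and CTNNA1 -0.36. With the Huh-7 libraries at one end of most of these, r mainly restates the order of the lines.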

How the data were processed

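Raw read counts and FPKM (reads scaled for gene length and library total) were deposited for SK-hep1 and Mahlavu, and the counts are not normalized. For Huh-7 the authors deposited FPKM only, whose whole multiples of 1 read gave the reads (100% whole within 0.01). Per the labels, mRNA was bound to poly-T beads and made into libraries with a kit that does not mark strand, whereas the paper's methods name rRNA depletion. The submitters' processing notes name TopHat2 2.0, HTSeq 0.6.1, edgeR and GRCh38.p12, and the paper names another build. Positions are as deposited and equal GENCODE 29 for 97.6% of genes. From every table, 8 lines without a value were left out.

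FPKM were quantile normalized over the 8 SK-hep1 and Mahlavu libraries, over both Huh-7 libraries, and over all 10 for comparisons between lines. Ratios were taken after adding 1, and genes averaging 1 FPKM or more were kept and called at 2-fold. Levels carry exact Poisson intervals, and ratios of reads exact conditional binomial intervals (95%). Reads carry no molecular identifiers, so intervals cover counting error only. Symbols and overlaps of exons with other genes were read from GENCODE 29. The steps were tested on simulated data.

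All 10 members were named, with each tested member in every comparison. From each gene list were named up to 3 called genes with the largest change and up to 3 with the highest mean, and for each member the genes nearest in Pearson's r. TCF7, KRT8 and KRT18 follow this rule. Some genes that the rule names are not reported here. The members and lists were chosen with earlier results of these data known. Alternatives were a pseudocount of 0.1 or 5, deposited or rescaled FPKM, another filter, quantile normalization within lines, read counts scaled by TMM (edgeR 4.0.16) or by DESeq2 1.42.0 size factors in R 4.3.3, length and GC content taken out by a quadratic fit, and leaving out libraries. Other steps used Python 3.11.15, numpy 2.4.6, pandas 2.3.3, scipy 1.17.1 and matplotlib 3.10.9.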

Additional observations from a re-analysis of the deposited data

How the results depend on the processing

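No direction of a called member reversed under any alternative run, and 121 of 136 alternative counts of members stayed within 1.5 times. JUP stayed above 2-fold in all 10 alternatives for PSPC1 (1.08 to 1.29, log2) and PSPC1/PTK6 (1.69 to 1.92), and CDH3 in all 10 for PSPC1-CT131 against mock (1.13 to 2.01). With a pseudocount of 5, the count of members called was 1 for PSPC1/PTK6 and 0 for PSPC1-Y523F/PTK6, for PTK6 added to PSPC1-Y523F and for PSPC1-CT131 against Mut-NLS-CT131. With a mean of at least 5 FPKM it was 1 for PSPC1/PTK6 and 0 for PSPC1-Y523F/PTK6 and for PTK6 added to PSPC1-Y523F, since CDH3 was then left out. With FPKM as deposited it was 0 for PTK6 added to PSPC1-Y523F. For PTK6 added to PSPC1 it was 1 with a pseudocount of 0.1, with FPKM as deposited, with FPKM scaled to sum to 1000000, with TMM and with DESeq2 size factors, where CDH3 passed 2-fold (log2 1.07 to 1.26). With TMM and DESeq2 size factors it was 2 for PSPC1-CT131 against mock, where VIM passed. Leaving out each library in turn left 2 members apart between SK-hep1 and Mahlavu, 5 between Huh-7 and SK-hep1 and 6 to 7 between Huh-7 and Mahlavu. Between Huh-7 and Mahlavu it was 5 with a pseudocount of 5 and with a mean of at least 5 FPKM, and 6 with FPKM as deposited or scaled to sum to 1000000, where CTNND1 had a gap of 0.97 and 0.98, and between Huh-7 and SK-hep1 6 with a pseudocount of 0.1 and with no filter. With a pseudocount of 5, CDH3 and CDH6 had gaps of -0.74 and 0.56 between Huh-7 and Mahlavu. The order of levels by listed gene length was added after seeing the data, and VIM led in 8 libraries against 6. No paired analysis was possible because each condition has 1 library and the labels carry no replicate numbers. Depth limits CDH1 and CDH2 in SK-hep1 and CDH11 in all lines, which had 4 reads or fewer.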

Other observations

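Other junction and filament genes of the fixed lists also differed between the SK-hep1 libraries. NECTIN2, an adhesion molecule that starts adherens junctions with afadin, was at 140.7 FPKM in mock, 296.1 with PSPC1, 294.2 with PSPC1/PTK6, 267.4 with PSPC1-Y523F and 227.7 with PSPC1-Y523F/PTK6, and was called higher than mock in PSPC1 (log2 1.00) and PSPC1/PTK6 (1.10). Of 11 tested catenins and junction linkers, 1 was called higher with PSPC1, and 1 higher and 1 lower with PSPC1/PTK6. Of all genes, 5.57% and 8.41% were called, so these counts are near that share. The lower gene was LMO7, at -1.53 with PSPC1/PTK6 and -1.41 with PSPC1-Y523F. KRT7, a keratin of ducts, was at 28.8 FPKM in mock, 6.65 with PSPC1, 21.6 with PSPC1/PTK6, 6.14 with PSPC1-Y523F and 34.1 with PSPC1-Y523F/PTK6, so both libraries without PTK6 plasmid lay below mock and both with it lay above them. KRT19, a keratin of bile ducts, was at 305.1 to 1210 FPKM in SK-hep1, at most 1.22 in Mahlavu and 219.0 and 260.7 in Huh-7. KLF4, an activator of the E-cadherin gene, had 181 reads in mock and 892 with PSPC1/PTK6 (log2 1.63), while CDH1 had 0 and 4. CTNNAL1, an alpha-catenin relative, was called lower in the PSPC1-CT131-labelled Mahlavu library than in mock by 1.02 on the log2 scale. Each of these values rests on 1 library per condition.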
